A study of Mus musculus with 3 samples.

Results

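Leukocyte composition was compared between recipient cells sorted from a transplanted mouse lung after 2 hours (2 h) and after 3 days (3 d) of reperfusion, by single-cell RNA-Seq. The members were all cell barcodes of these libraries that had over 200 and below 6000 detected genes, less than 10% of UMIs from mitochondrial genes and less than 25000 UMIs in total, where a UMI is 1 tagged RNA molecule. They were 18607 cells, 10283 at 2 h and 8324 at 3 d, of 21029 cells that passed the same filter in the whole series and 22265 barcodes in all. In both groups a left lung from a C57BL/6J (B6) donor carrying the CD45.2 allele was placed in a B6 recipient carrying CD45.1, after 60 minutes of storage at 4°C and 45 minutes at 28°C, and the time of reperfusion was the labelled difference between them. Per the study's methods the mice were 8 to 10 weeks old. Each time point was a single library from 2 pooled mice, sorted as live CD45.1 cells, so no difference below could be tested across mice and no p-value is given. A further library, from untransplanted (naive) lung and made with another Cell Ranger version, was used only for values set beside the other libraries. The labels and methods do not say whether its cells were sorted in the same way, which bears on each naive value below.

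Ischemia-reperfusion injury of a lung graft is an acute inflammation in which recipient leukocytes enter the graft once blood flow returns. Neutrophils enter early, classical monocytes (Ly6C-high, CCR2+) are recruited from blood and can become macrophages in tissue, and nonclassical monocytes patrol the vessel wall. B cells, T cells and natural killer (NK) cells circulate through the lung or lodge in it.

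Lineages were called from marker UMIs, led by 7 genes given here with their positions in GRCm38 from GENCODE vM21. Cd79a, the signalling chain of the B cell receptor, lies at chr7:24897381-24902197 on the plus strand. Cd3e, of the T cell receptor complex, lies at chr9:44998740-45009627 on the minus strand, and Ncr1, the NK receptor NKp46, at chr7:4337724-4345164 on the plus strand. S100a8, a calcium-binding protein abundant in neutrophils, lies at chr3:90668978-90670035 on the plus strand. Ly6c2, the surface antigen of classical monocytes, lies at chr15:75108158-75111970 on the minus strand. Ace, angiotensin-converting enzyme, here the leading marker of nonclassical monocytes, lies at chr11:105967945-105989964 on the plus strand. C1qa, a chain of complement C1q made by macrophages, lies at chr4:136895917-136898803 on the minus strand. These genes were each part of a panel, and 15 panels of 118 genes in all, of which 11 were left out of the calls, covered leukocytes, endothelium, epithelium and red cells.

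The libraries differed in depth. The 2 h cells held a median of 878 UMIs (quartiles 677 and 1220.5) and 443 genes, and the 3 d cells a median of 5716.5 UMIs (4283.75 and 9514.75) and 1944 genes, a ratio of 6.51 for UMIs. Every cell was therefore thinned at random to 500 UMIs before it was called, which left out 469 cells at 2 h (4.56%) and 0 at 3 d. Of those left out, 67.8% were neutrophils by a call at their own depth. A cell with at least 8 UMIs on the neutrophil panel was called a neutrophil. If another panel also held at least 2 UMIs, it went to a mixed neutrophil class, of 175 cells at 2 h and 147 at 3 d. Every other cell took the lineage with the most UMIs among the panels other than the neutrophil one, and ties stayed uncalled. Cells with fewer than 8 neutrophil-panel UMIs could thus be called another lineage. The libraries shared 23 barcodes, and Scrublet called 3.92% of the 2 h and 3.33% of the 3 d cells doublets, which were kept in the values given first. All intervals below are 95% and cover counting error only, not differences between mice.

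Neutrophils and T cells together made up most of the 2 h library, and B cells, monocytes and macrophages took larger shares at 3 d. T cells were 22.9% of 9814 cells at 2 h (exact interval 22.0 to 23.7) and 9.84% of 8324 cells at 3 d (9.21 to 10.5). B cells were 14.2% at 2 h (13.5 to 14.9) and 22.2% at 3 d (21.3 to 23.1). By this call there were 2244 T and 1393 B cells at 2 h and 819 T and 1845 B cells at 3 d, whereas the 7 leading genes alone called more B than T cells at 2 h as well (813 and 563). NK cells were 7.55% (7.04 to 8.09) and 4.10% (3.68 to 4.54), lower at 3 d by a factor of 1.84. Neutrophils were the largest lineage in both libraries, at 39.4% (38.4 to 40.4) of the 2 h cells and 28.0% (27.0 to 28.9) of the 3 d cells. None of these intervals overlapped between the time points. The naive library held 22.5% B, 20.6% T, 21.6% NK cells and 14.9% neutrophils by the same rule.

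Monocytes and macrophages took larger shares at 3 d. Classical monocytes were 1.498% (147 cells, 1.27 to 1.76) at 2 h and 9.27% (772 cells, 8.66 to 9.92) at 3 d, a 6.19-fold higher share. Nonclassical monocytes were 1.67% (164 cells, 1.43 to 1.94) and 4.31% (359 cells, 3.89 to 4.77), or 2.58-fold higher. Macrophages were 4 cells of 9814 at 2 h, 0.0408% (0.0111 to 0.104), and 602 cells, 7.23% (6.68 to 7.81), at 3 d. The 4 early cells held 0 UMIs of C1qa, C1qb, C1qc and Arg1, 4 of the 8 panel genes. With all fixed panel genes, none left out, macrophages were 72 and 493 cells, an 8.07-fold higher share.

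The rarer lineages rested on few cells. Basophils or mast cells were 61 and 91 cells, 0.622% (0.476 to 0.798) and 1.09% (0.881 to 1.34). Conventional dendritic cells were 12 and 20 cells, plasmacytoid dendritic cells 14 and 18, alveolar macrophages 6 and 15, and plasma cells 4 and 3. For the dendritic and plasma cells the interval of the ratio included no difference by this call, but it moved with the call. Conventional dendritic cells were 18 and 41 unthinned (log2 ratio 1.49, 0.69 to 2.29) and 8 and 25 when thinned to 250 UMIs (1.95, 0.80 to 3.10). With all fixed panel genes they were 8 and 12 (0.82, -0.47 to 2.11). Plasma cells were 24 and 7 with all fixed panel genes (-1.54, -2.75 to -0.33) and 4 and 6 at 250 UMIs (0.89, -0.93 to 2.71). Cells outside the sorted leukocyte class were also present, with 35 endothelial cells at 2 h and 89 at 3 d, and 21 and 11 epithelial cells. Cells with a tie were 2.56% and 4.41%. Cells below the neutrophil minimum with no UMI on any other panel were 6.85% and 5.97%.

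Shares sum to a whole and the libraries carry no count of cells per lung, so more cells of a lineage and fewer cells of the others cannot be told apart. With neutrophils and the mixed neutrophil class taken out of the denominator, B cells were 24.1% of 5771 cells at 2 h and 31.5% of 5850 at 3 d. T cells were 38.9% and 14.0%. Classical monocytes were then 2.55% and 13.2%. The 6 lineages other than neutrophils each kept their direction on this denominator.

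Other ways of calling cells were set beside the panel call. With no thinning, B cells were 15.01% and 23.4%, T cells 25.03% and 11.9%, NK cells 7.71% and 4.23%, and neutrophils 41.2% and 28.5%. Classical monocytes were 1.82% and 10.9% unthinned, nonclassical monocytes 2.48% and 5.75%, and macrophages 0.0486% and 8.89%. When each library was clustered by itself and clusters were named from the same panels, the B-like share was 15.4% and 22.5%, the T-like share 24.5% and 11.6%, and the NK-like share 8.32% and 3.87%. Clusters put classical monocyte-like cells at 2.63% and 9.50% and nonclassical monocyte-like cells at 3.95% and 6.40%. The panel call found 45.19% of the classical monocyte-like cluster cells at 2 h and 75.3% at 3 d, and 38.2% and 60.2% of the nonclassical ones. Its monocyte ratios were wider than those of the clusters. The 2 h classical monocyte-like cluster, of 270 cells, had the plasmacytoid dendritic genes Siglech and Cox6a2 among its leading genes. At 3 d a separate cluster of 99 cells was led by Siglech. The part of such cells in the 2 h cluster share was not tested.

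The 7 leading genes alone called fewer cells. At 500 UMIs, 45.9% of the 2 h and 43.4% of the 3 d cells held none of them. B cells were 8.28% and 14.4%, T cells 5.74% and 2.11%, neutrophils 33.8% and 26.1%, classical monocytes 2.12% and 4.35%, nonclassical monocytes 1.23% and 2.78%, and macrophages 1 and 323 cells. NK cells, called by Ncr1 alone, were 46 and 22 cells, 0.469% and 0.264%. Unthinned, the same rule gave 0.642% and 0.841% NK cells, the single share among the 7 lineages whose direction turned. Cells with more than 1 of the 7 markers went from 6.83% at 2 h to 34.1% at 3 d.

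**Figure D1:**
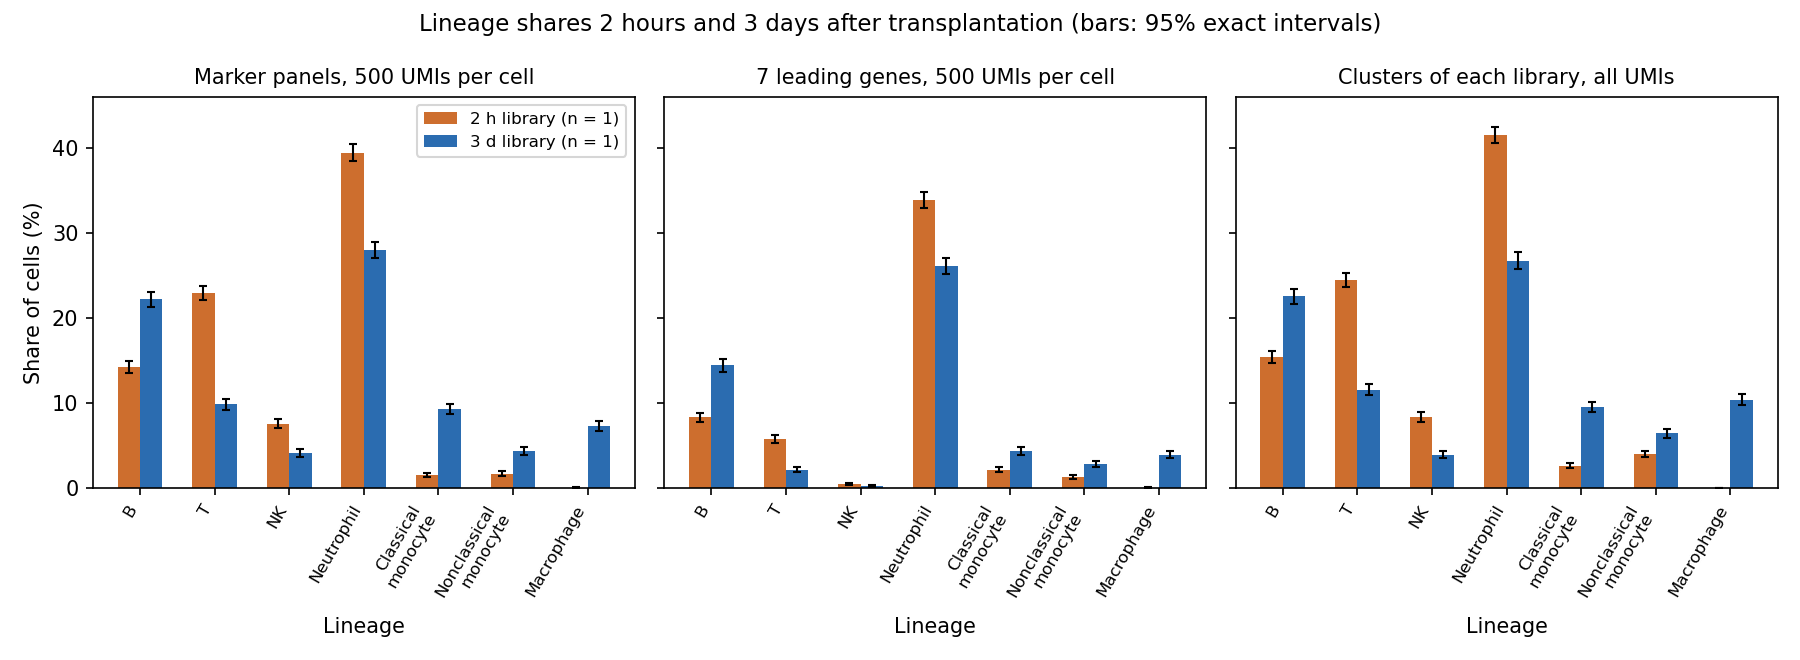
Share of cells in percent for 7 lineages at 2 h and 3 d (1 library each), by marker panels at 500 UMIs per cell (left), by the 7 leading genes at 500 UMIs (middle) and by clusters of each library (right); error bars are exact 95% intervals of counting error. In all 3 panels T cells, NK cells and neutrophils stand lower at 3 d, and B cells, monocytes and macrophages stand higher.

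Antibody tags read on the same cells gave a measure that the calls had not used. The antibody table held 277 features, with a median of 55 counts per cell at 2 h and 82 at 3 d, and 5 features took 98.9% and 98.5% of all counts (CD44, CD49f, ITGB7, CD45R and Mac2). No feature for CD45.1 or CD45.2 was among them, so the allele on which the cells had been sorted could not be checked. CD45R (B220), the B cell form of CD45, averaged 19.2 counts on B cells at 2 h and 17.7 at 3 d, against 0.367 and 0.388 on T cells. Of the called B cells, 97.5% and 96.2% carried 3 or more CD45R counts. Among all kept cells, whatever their RNA call, 17.8% (17.1 to 18.6) carried 3 or more at 2 h and 26.0% (25.03 to 26.9) at 3 d. The share of B cells was therefore also higher at 3 d by surface protein. Of these CD45R-positive cells 74.1% and 82.1% were called B from RNA.

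Mac2 (galectin-3), a lectin made in quantity by macrophages, was higher at 3 d on all 6 lineages that could be compared. Classical monocytes carried a mean of 3.19 counts at 2 h and 27.8 at 3 d, and neutrophils 0.688 and 10.9. B cells carried 0.502 and 7.20, and T cells 0.179 and 2.32. Macrophages at 3 d carried 53.6. The share of all cells with 3 or more Mac2 counts was 3.91% at 2 h and 78.2% at 3 d, so the higher count was spread over the library.

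CD44, the hyaluronan receptor, was at its highest among the 7 lineages on neutrophils at 2 h, at 111 counts per cell, and averaged 69.5 there at 3 d. On nonclassical monocytes it averaged 45.3 and 29.0, and on classical monocytes 45.7 and 48.1. B cells carried 7.09 and 7.07, a ratio whose interval included no difference. Mean counts of CD49f (integrin alpha 6) and ITGB7 (integrin beta 7) were higher at 3 d on all 6 lineages that could be compared. The rise was smallest on neutrophils, at 25.2 and 26.3 for CD49f and 4.68 and 5.15 for ITGB7. CD49f averaged 8.004 and 19.7 on T cells and 2.29 and 7.02 on B cells, and ITGB7 13.7 and 31.1 on B cells. Macrophages at 3 d carried 215 CD49f counts per cell. They also carried the most counts of the 9 isotype controls, 7.75 per cell, and those controls measure nonspecific binding.

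**Figure D2:**
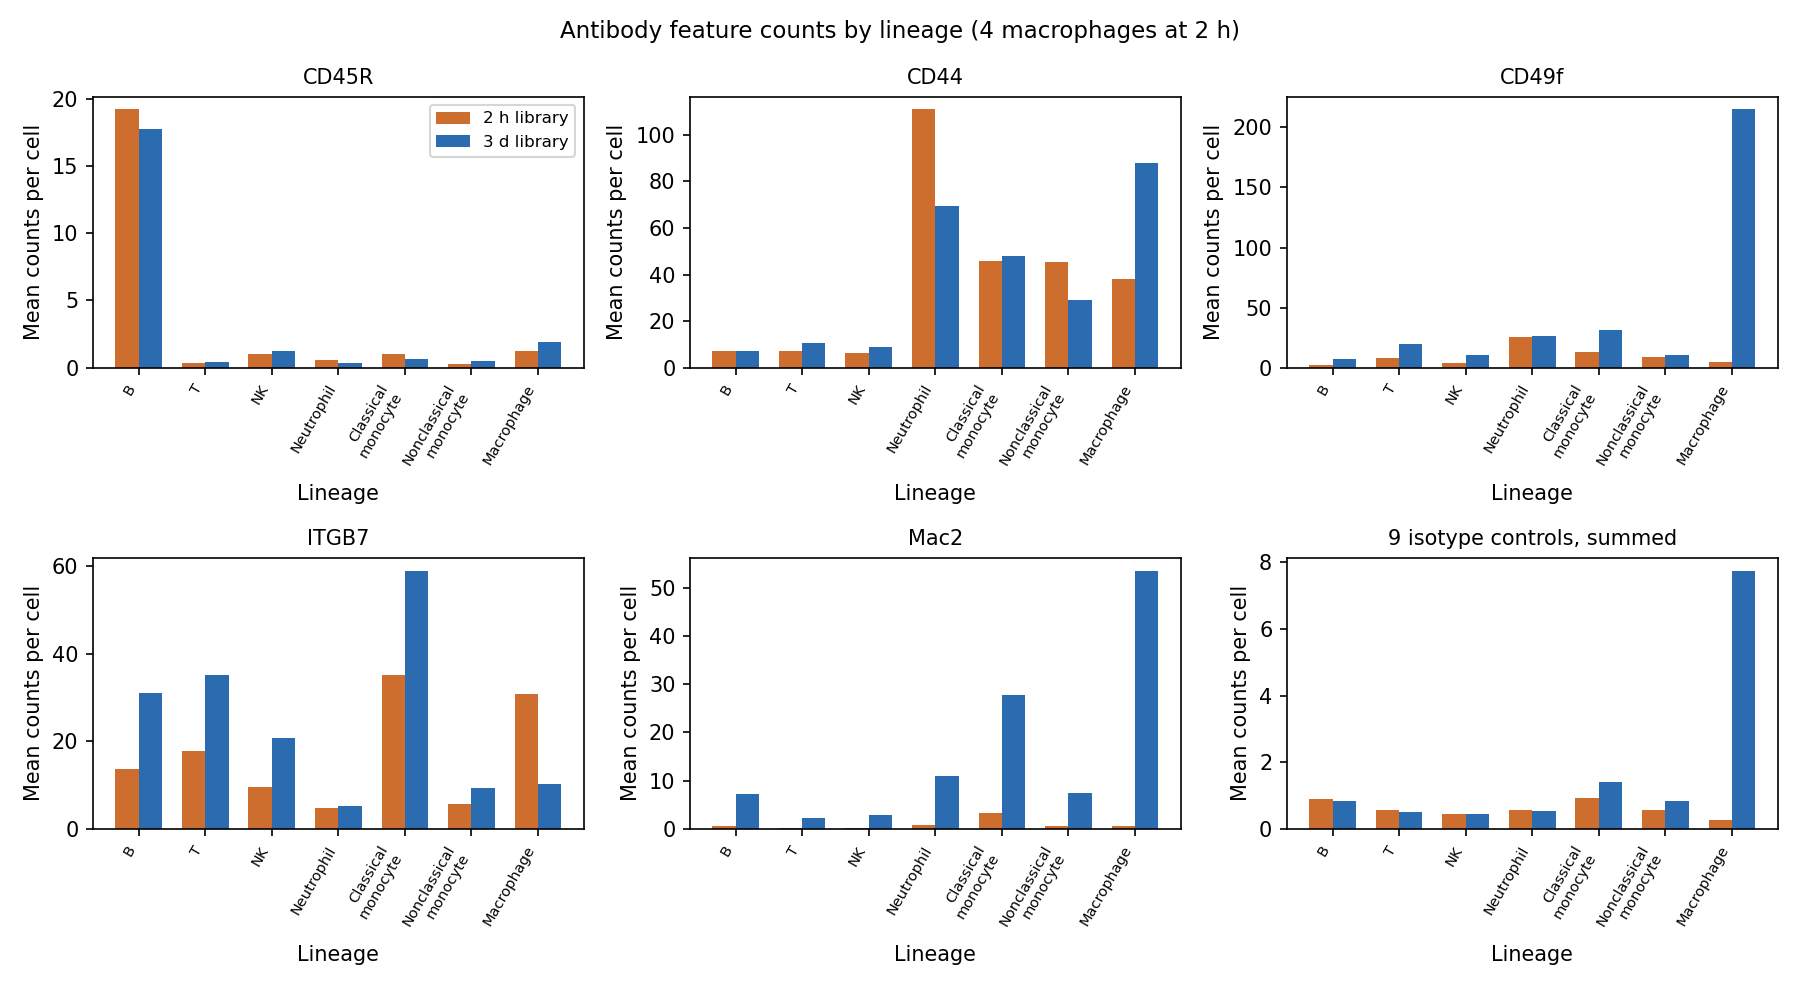
Mean antibody counts per cell (bars, no error bars) for 5 antibodies and the sum of 9 isotype controls on 7 lineages at 2 h and 3 d; the 2 h macrophage bars rest on 4 cells. CD45R stands at 19.2 and 17.7 on B cells and under 2 on the others, Mac2 is higher at 3 d on all 7, and CD44 on neutrophils is 111 at 2 h and 69.5 at 3 d.

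Depth differed by lineage as well as by library. B cells held a median of 759 UMIs at 2 h and 5003 at 3 d (6.59-fold), T cells 1127 and 8079 (7.17-fold), NK cells 792 and 5191 (6.55-fold) and neutrophils 785 and 4447 (5.66-fold). Classical monocytes held 1779 and 16628, at 9.35-fold the widest ratio of the 7 lineages. The order of the lineages by median UMIs was close in both libraries, with classical monocytes above T cells and T cells above B cells and neutrophils. RNA content per cell and capture efficiency cannot be told apart from these medians.

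Because of this, the share of RNA was not the share of cells. Classical monocytes held 2.60% of the kept UMIs at 2 h and 19.2% at 3 d, more than any other lineage at 3 d. Neutrophils held 33.8% and 17.6%, T cells 25.9% and 10.99%, B cells 11.6% and 16.4%, and NK cells 6.23% and 3.31%. Macrophages held 0.0532% and 10.8%. At an equal 500 UMIs, cells of the 3 d library still showed more genes, with medians of 293 and 337 over all cells, 269 and 308 in neutrophils and 300 and 312 in T cells. The median mitochondrial share was 4.44% and 5.36% in B cells, 4.02% and 4.98% in T cells and 0.204% and 0.496% in neutrophils.

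**Figure D3:**
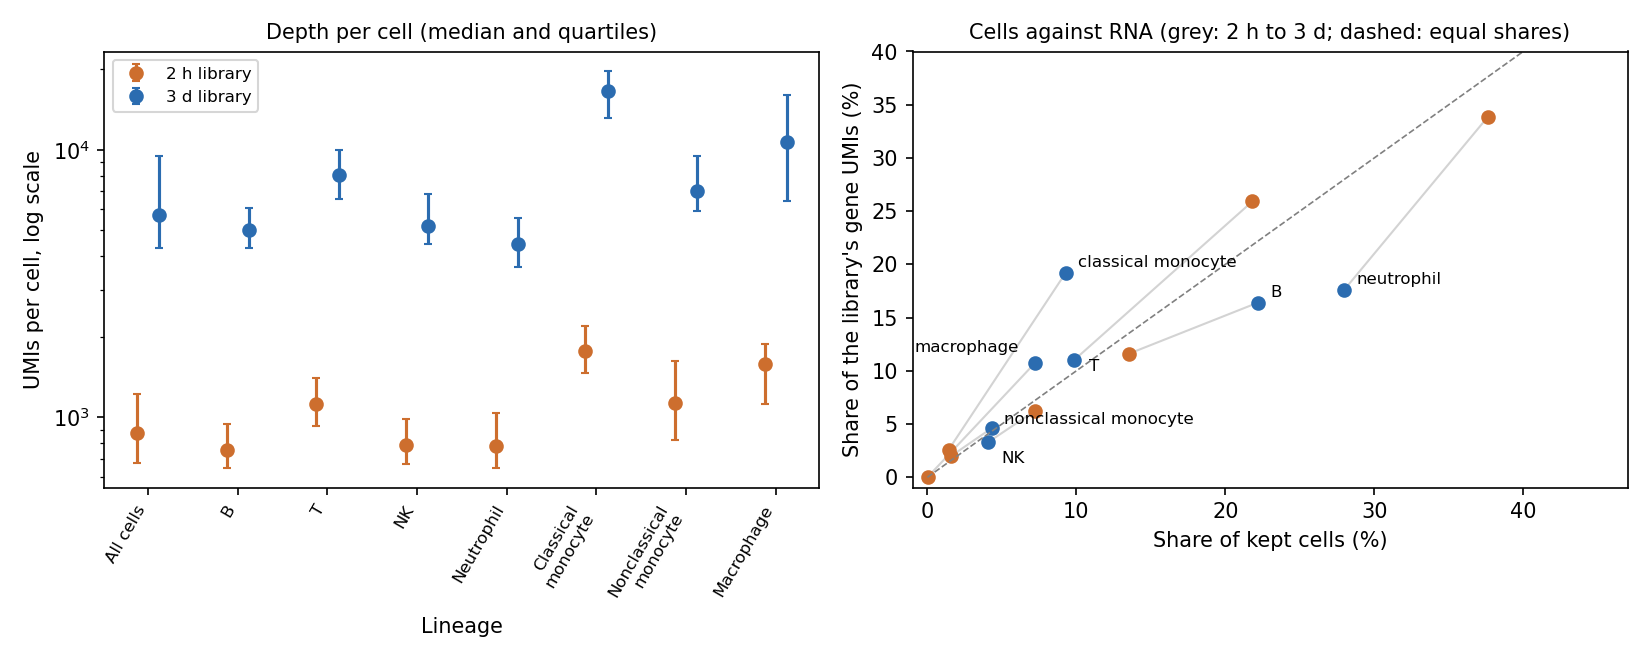
Left, median UMIs per cell with quartiles on a log axis, for all kept cells and by lineage at 2 h and 3 d; right, the share of each library's gene UMIs held by a lineage against its share of kept cells, with grey lines joining 2 h to 3 d and a dashed line of equal shares. Every lineage is deeper at 3 d, and classical monocytes lie well above the dashed line at 3 d, whereas neutrophils and B cells lie below it.

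The macrophages at 3 d were examined by their own clusters. Of 8324 cells, 863 (10.4%) lay in 3 macrophage-like clusters, and no 2 h cluster carried that name. The largest, of 629 cells, was led by Saa3, an acute-phase serum amyloid A, Arg1, the arginase of alternatively activated macrophages, and the eosinophil chemokine Ccl24. The second, of 186 cells, was led by Fcrls, C1qb and Ms4a7, and the smallest, of 48 cells, by Mgp and the cell-cycle genes Pclaf and Top2a. The leading genes define the clusters and are given as description. The panel call gave macrophage to 396, 131 and 17 of these cells. A further 130 cells at 3 d, led by Tnf, Ccl3 and Siglecf, fitted no panel and stayed unnamed, and 61 of them were neutrophils by the panel call. The 3 d library also held a cluster of 196 cells led by the surfactant gene Sftpc, at a median of 703 UMIs, of which the panel call gave epithelium to 3 and neutrophil to 42, and 116 endothelial-like cells at 1300.

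Cells with RNA of cell-cycle genes were rare at both times. With UMIs of at least 2 of 10 genes at 500 UMIs, they were 10 of 9814 cells at 2 h (0.102%, 0.0489 to 0.187) and 22 of 8324 at 3 d (0.264%, 0.166 to 0.400). Macrophages made up 10 of the 22, or 1.66% of macrophages (0.799 to 3.03). Without thinning the share over all cells was 0.316% at 2 h and 3.14% at 3 d. Thus the size of the difference moved with depth.

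Summed counts were then compared within each lineage as counts per 1000000 UMIs (CPM), on the scale of the log2 ratio of CPM plus 10, 3 d over 2 h. A gene was past the fold at an absolute log2 ratio of at least 1, among genes with at least 50 UMIs over both libraries. Panel genes of any lineage were left out when the leading genes were picked, but not from the shares of genes past the fold or the lists. The share of genes past the fold in either direction was 7.97% of 9444 in B cells, 6.35% of 8967 in T cells and 11.8% of 6332 in NK cells. It was 7.78% of 7974 genes in neutrophils, 13.3% of 9016 in classical monocytes and 18.2% of 6316 in nonclassical monocytes. Over all kept cells it was 7.8% of 12823 genes, 5.05% higher and 2.75% lower at 3 d. The 3 lineages with the fewest cells at 2 h had the highest of these shares. The median over all genes was 0.15 to 0.29 in the 6 lineages, so values near that level are no difference from the bulk of genes. The labels do not say which library was made with which kit, and kit, run and time point cannot be told apart in any of these ratios.

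Immediate-early genes, which are transcribed within minutes of a stimulus, were lower in sum at 3 d in all 6 lineages. Past the fold downward were 9 of 16 in B cells, 7 in T cells, 5 in NK cells, 5 in neutrophils and 7 in either monocyte class, against 3.11%, 3.45%, 3.57%, 2.9%, 3.87% and 3.96% of all tested genes. Upward, 1 of 16 passed in NK cells (Atf3, 7.49 and 29.9 CPM) and 0 in the other 5 lineages. Fos, an AP-1 subunit, was past the fold in all 6, at 769 and 91.4 CPM in B cells (log2 ratio -2.94) and 1832 and 757 in neutrophils (-1.26). Jun, its partner, stood at 686 and 101 CPM in B cells (-2.65) and at 211 and 243 in neutrophils (0.19), within the fold. Klf2, which keeps lymphocytes quiescent and circulating, stood at 2967 and 837 CPM in B cells (-1.81) and 2205 and 617 in NK cells (-1.82). Summed over the list, B cells held 10689 CPM at 2 h and 4317 at 3 d, with 4333 in the naive library, and neutrophils 23067 and 12555, with 10638.

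Heat-shock genes moved in part. Dnajb1, an Hsp40 co-chaperone, stood at 430 and 58.3 CPM in B cells (-2.69), 287 and 59.1 in T cells (-2.10) and 263 and 52.6 in NK cells (-2.13). Hspa1b, an inducible Hsp70, stood at 316 and 78.4 in B cells (-1.88). Of the 10 genes, 4 were past the fold downward in B cells, 3 in T cells, 1 in NK cells, 0 in neutrophils, 4 in classical and 2 in nonclassical monocytes, and Hsp90aa1 was past it upward in NK cells (186 and 394, 1.04) and nonclassical monocytes (275 and 612, 1.12). In the same order 3.11%, 3.45%, 3.57%, 2.9%, 3.87% and 3.96% of all tested genes were past the fold downward, and 8.21% in NK cells and 14.2% in nonclassical monocytes were past it upward. The constitutive members Hspa8 and Hsp90ab1 were within the fold in all 6.

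Inflammatory genes differed in part in neutrophils. Cxcl2, which attracts neutrophils through CXCR2, stood at 19211 CPM at 2 h and 4100 at 3 d (-2.23). The chemokine Ccl4 stood at 1260 and 402 (-1.62), and Il1rn, the interleukin 1 receptor antagonist, at 2290 and 691 (-1.71). Il1b, the cytokine that the latter opposes, was within the fold at 10694 and 8284 (-0.37), and Tnf was higher at 3 d at 73.9 and 174 (1.13). Thus 3 of the 12 listed genes were lower and 1 was higher past the fold in neutrophils, where 2.9% and 4.88% of all tested genes were. Cxcl2 was also lower in classical monocytes (2667 and 603, -2.13) and nonclassical monocytes (3342 and 801, -2.05). The neutrophil panel in the nonclassical monocytes summed to 3365 CPM at 2 h and 711 at 3 d, and its part in their Cxcl2 value was not tested. In NK cells 3 of 11 were higher (Il1b, Tnf and Ptgs2), against 8.21% of all tested genes. The classical monocyte panel in these NK cells stood at 436 and 1064 CPM, the neutrophil panel at 621 and 781 and the macrophage panel at 7.49 and 87.7. Their part in the NK values was not tested.

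**Figure D4:**
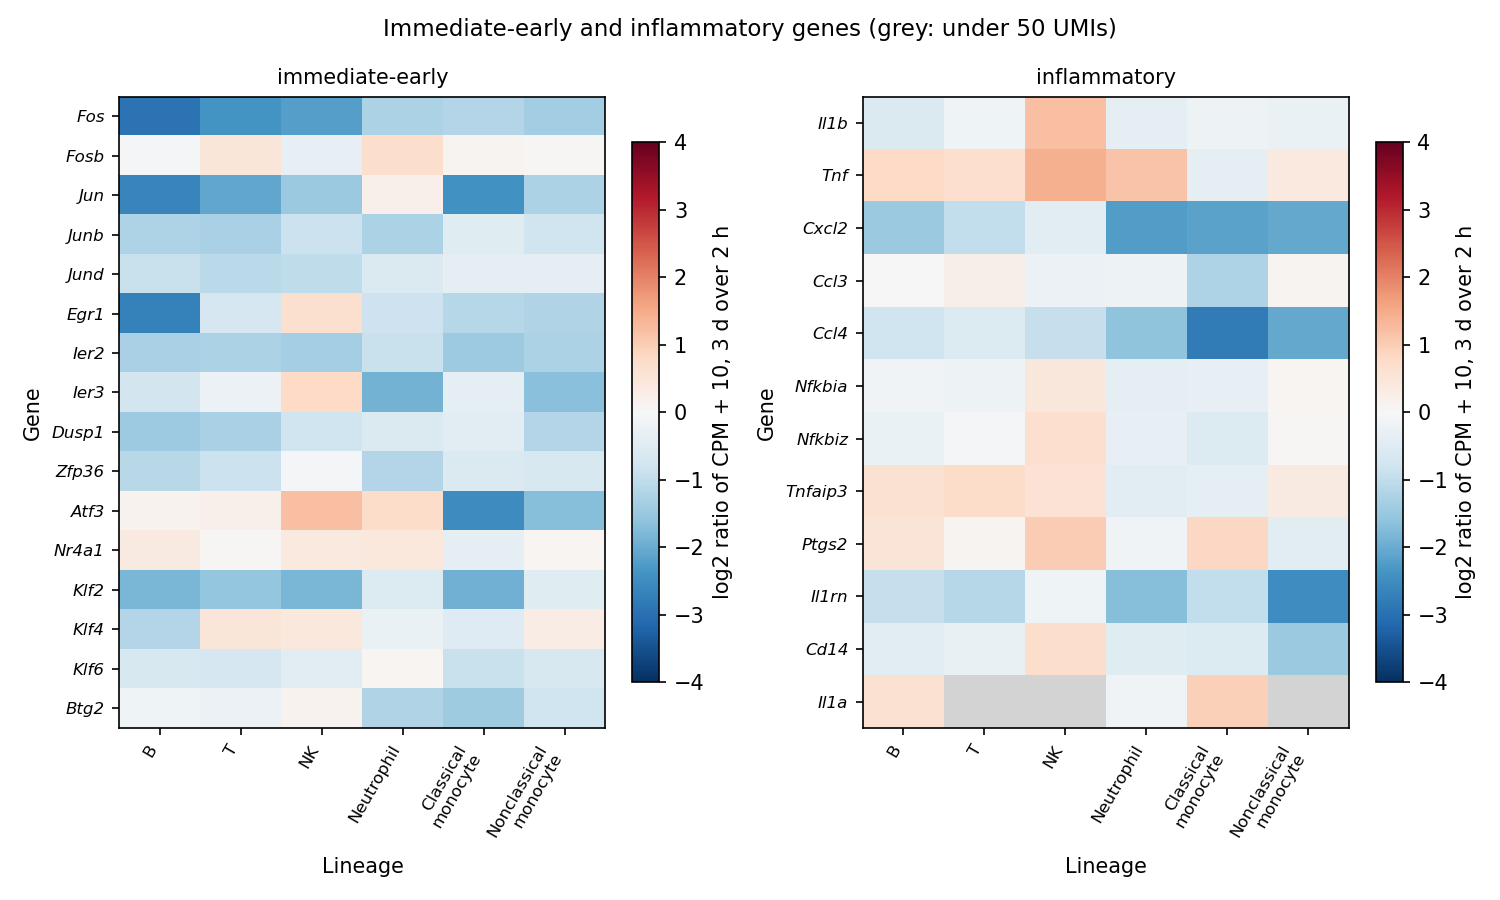
Heat maps of the log2 ratio of CPM plus 10 (3 d over 2 h, color scale from -4 to 4) for the immediate-early genes (left) and inflammatory genes (right) in 6 lineages, with blue lower and red higher at 3 d and grey for genes under 50 UMIs. The row of Fos is blue in all 6 columns, and Cxcl2 and Ccl4 are darkest in neutrophils and monocytes.

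Outside the lists, the leading genes of neutrophils were Steap4, a metalloreductase (13.8 and 322 CPM, 3.80), Wfdc17 (312 and 4282, 3.74), Saa3 (10.7 and 152, 2.97) and Ifitm1, an interferon-induced membrane protein (498 and 3612, 2.83). Lower at 3 d were Cxcl3, a chemokine related to Cxcl2 (2248 and 138, -3.93), the metallothionein Mt1 (587 and 34.7, -3.74), Schip1 (261 and 15.6, -3.40) and Bc1 (132 and 6.52, -3.10). The neutrophil panel itself summed to 56173 CPM at 2 h and 148256 at 3 d, values that the call used. Of interferon-induced genes, Oasl2 was past the fold in neutrophils (67.0 and 264, 1.83), 1 of 13 tested. In T cells 3 of 13 were lower, Isg15 (84.9 and 27.5, -1.34), Ifit1 (44.6 and 10.4, -1.42) and Rtp4 (49.7 and 12.1, -1.43). These counts stood against 4.88% of all tested genes higher in neutrophils, so that 1 of 13 was near the background, and 3.45% lower in T cells.

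In the lymphocytes the 4 genes that led the upward direction in each lineage were highest at 3 d in monocytes or macrophages, except Fabp5, highest in NK cells. Lyz2, lysozyme of macrophages and granulocytes, stood at 32.1 and 367 CPM in B cells (3.16), 28.1 and 313 in T cells (3.08) and 53.9 and 511 in NK cells (3.03). Saa3 was at 0 UMIs in B cells at 2 h and 99.9 CPM at 3 d, at least 41.5-fold higher against a floor of 3 UMIs over the group. S100a4, a calcium-binding protein of motile and myeloid cells, was higher in B (5.62 and 83.9, 2.59), T (40.3 and 387, 2.98) and NK cells (31.4 and 469, 3.53). In the naive library it stood at 8.97, 218 and 104 CPM in B, T and NK cells. The lymphocyte values of Lyz2 at 3 d were 2.21%, 1.88% and 3.07% of the 16653 CPM in classical monocytes. C1qa in the other 6 lineages at 3 d was 0.712% to 2.34% of its macrophage level of 1725 CPM, and Arg1 0.562% to 3.91% of 2185 CPM. The summed macrophage panel in B cells stood at 2.41 CPM at 2 h, with 7 of 8 genes at 0, and at 114 at 3 d, with none at 0. Thus macrophage RNA in cells of other lineages moved together with the macrophage share, and its part in these results was not tested.

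Several genes were lower at 3 d in the lymphocytes, some of them in myeloid lineages as well. Cd200, a ligand that restrains myeloid cells, stood at 285 and 19.2 CPM in B cells (-3.33) and 133 and 5.14 in T cells (-3.24). Spry2, an inhibitor of receptor tyrosine kinase signalling, stood at 2949 and 237 CPM in NK cells (-3.58), with 278 in the naive library. The histone genes Hist1h3e and Hist1h4h were lower in B cells (341 and 16.3, and 240 and 11.7) and in NK cells (261 and 14.7, and 293 and 9.96). Spry2 and Hist1h3e were past the fold downward in all 4 other lineages in which each was tested. Hist1h4h was past it in 3 of 4, and for all 3 genes these lineages included myeloid ones. Fabp5, a fatty-acid binding protein, was higher in NK cells (11.98 and 194, 3.22) but at -0.88 on the cells called by Ncr1 alone, and Ccdc152 was lower in T cells (86.3 and 0.714, -3.17).

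Genes of repair and matrix included members higher at 3 d in each of the 6 lineages. Fn1, fibronectin, stood at 1093 and 2102 CPM in classical monocytes (0.94) and at 28.0 and 527 in nonclassical monocytes (3.82), where macrophages held 8060 at 3 d. In B cells it stood at 8.03 and 187 (3.45), 2.32% of the macrophage level. Past the fold upward were 8 of 12 tested in B cells, 5 of 11 in T cells, 8 of 11 in NK cells and 7 of 12 in neutrophils, against 4.86%, 2.9%, 8.21% and 4.88% of all tested genes. On the 46 and 22 cells called by Ncr1 alone the NK sum of the list was instead at -1.01, against 1.37. Arg1 and Saa3 in B, T and NK cells and neutrophils at 3 d stood at 0.562% to 2.92% of their macrophage levels. The part of macrophage RNA in the counts of these lineages was not tested. In classical monocytes 5 of 15 were higher, among them Arg1 (0 UMIs at 2 h and 85.4 CPM at 3 d), Saa3 (14.4 and 392, 4.04) and Trem2, a lipid-sensing receptor of tissue macrophages (3.59 and 108, 3.11), where 9.38% of all tested genes were. Arg1 and Saa3 there stood at 3.91% and 7.52% of their macrophage levels at 3 d. The panel call gave classical monocyte to 67, 27 and 2 cells of the 3 macrophage-like clusters at 3 d, and their part in these values was not tested. In nonclassical monocytes 7 of 13 were higher and 2 lower, against 14.2% and 3.96%. Thbs1, thrombospondin 1, went the other way in neutrophils, at 6838 and 1470 CPM (-2.21), and outweighed the other members in the sum of the list, which was 7656 and 3553 CPM.

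MHC class II genes, which present antigen to CD4 T cells, were higher at 3 d in NK cells and lower in sum in B cells. In NK cells 5 of 7 tested were past the fold, led by H2-Ab1 (153 and 791 CPM, 2.30) and H2-DMb1 (10.5 and 65.9, 1.89), against 8.21% of all tested genes. In the same NK cells the B panel stood at 102 CPM at 2 h and 228 at 3 d, the classical monocyte panel at 436 and 1064 and the macrophage panel at 7.49 and 87.7, and their part in these values was not tested. The invariant chain Cd74 stood at 20092 and 9107 CPM in B cells (-1.14), the 1 member lower past the fold there, and H2-Ab1 at 2197 and 3805 (0.79). H2-Ab1 was also higher in classical (302 and 679, 1.14) and nonclassical monocytes (168 and 675, 1.94) and in neutrophils (41.1 and 129, 1.44). On the 46 and 22 cells that Ncr1 alone called, the NK sum of the list was lower at 3 d (log2 ratio -1.28), against 1.08 on the 741 and 341 panel-called cells.

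**Figure D5:**
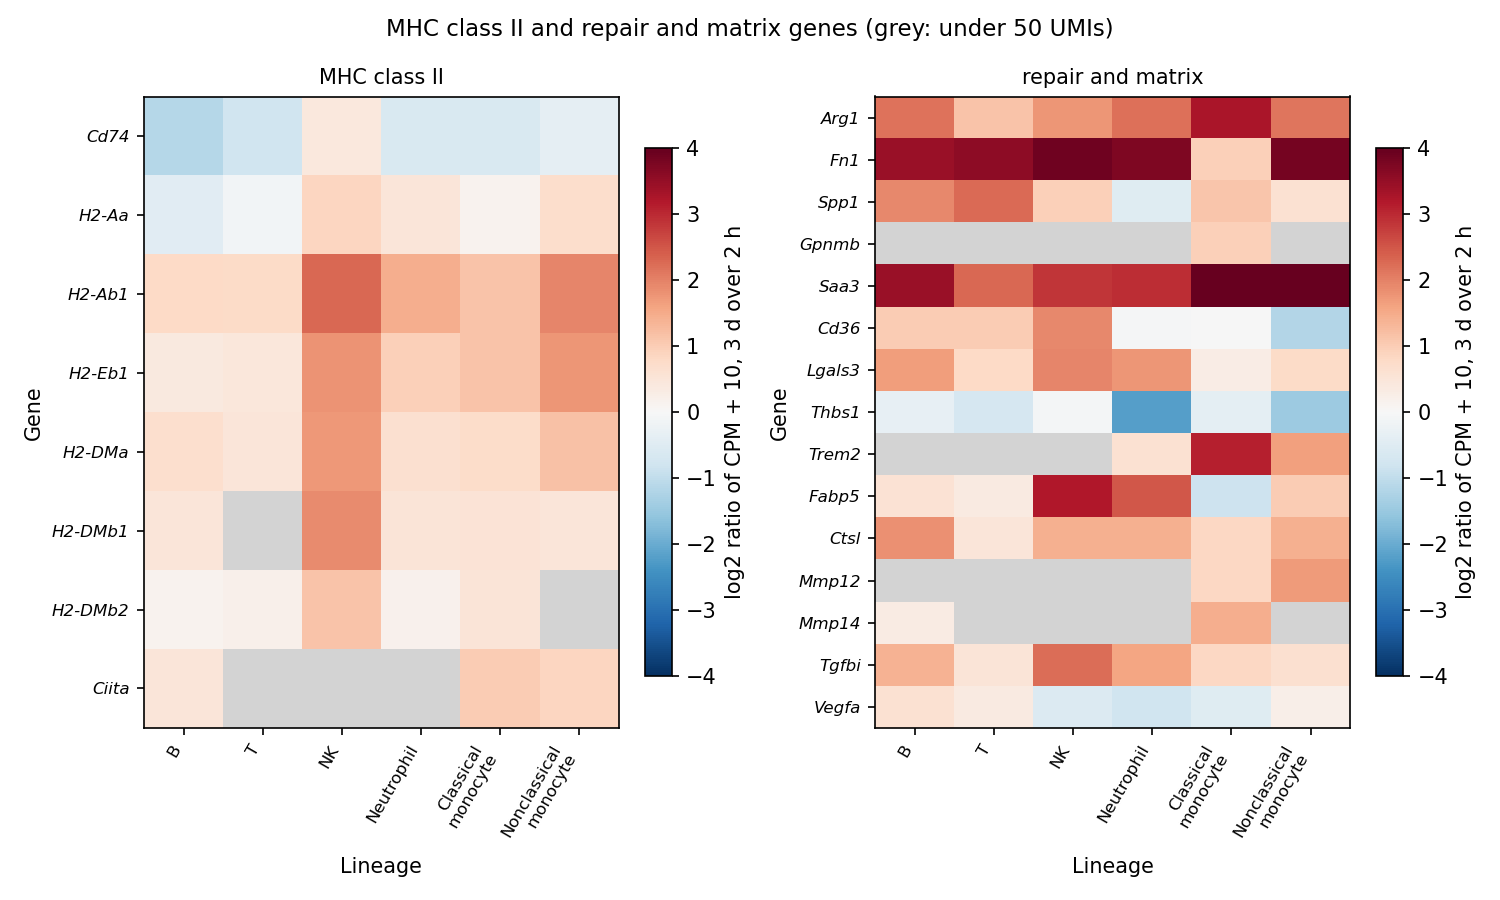
Heat maps of the log2 ratio of CPM plus 10 (3 d over 2 h, color scale from -4 to 4) for MHC class II genes (left) and genes of repair and matrix (right) in 6 lineages, with red higher at 3 d, blue lower and grey under 50 UMIs, and values past 4 drawn at the end of the scale. Saa3 is past 2 in all 6 columns, Fn1 is palest in classical monocytes at 0.94, and Thbs1 is blue in neutrophils at -2.21.

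Further leading genes of the monocytes follow. Classical monocytes held more Tppp3, a tubulin-binding protein (32.3 and 277 CPM, 2.76), and Pnp, purine nucleoside phosphorylase (35.9 and 248, 2.49), and less Dennd5b (428 and 25.8, -3.61) and Rpgrip1 (248 and 10.9, -3.63). Piezo1, a mechanosensitive channel, had 0 UMIs there at 2 h and 45.22 CPM at 3 d, at least 4.19-fold higher. In nonclassical monocytes Saa3 led (4.67 and 431, 4.91), Traf3, an adaptor of TNF receptors, was at least 3.89-fold higher, and Cd33, a sialic acid binding receptor, was lower (219 and 16.3, -3.12). Tppp3, Rpgrip1 and Saa3 were past the fold in the same direction in all 6 lineages, so their differences were not particular to monocytes.

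Some genes moved alike in all 6 lineages. Of 5299 genes tested in each, 34 (0.642%) were past the fold upward and 33 (0.623%) downward in all of them. After panel genes, receptor segments and gene models were left out, 30 and 31 remained. The upward set held 10 ribosomal protein genes and Tmsb4x, thymosin beta 4 (2966 and 12613 CPM over all cells), and the downward set Actb, beta actin (31180 and 8478), Pdcd4 (1096 and 102) and Bc1, a small noncoding RNA (286 and 11.1). Of genes named above, Saa3, S100a4, Lyz2 and Tppp3 were also in the upward set, and Fos and Rpgrip1 in the downward set. On the NK cells called by Ncr1 alone Bc1 was at 0.81. The naive level over all cells was nearer to 3 d than to 2 h for 26 of the 30 and 28 of the 31, with Actb at 6901 CPM. UMIs on V segments of the receptors, which lie toward the 5′ end of the transcript, numbered 3.19 per 100 constant-region UMIs in B cells at 2 h and 0.641 at 3 d, with 1.16 in the naive library. In T cells they numbered 4.95, 1.41 and 2.71. Whether library chemistry took part in the genes shared by all lineages was not tested, and chemistry and time cannot be told apart here.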

How the data were processed

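Sorted recipient leukocytes from transplanted lung (1 library at 2 h, 1 at 3 d, each of 2 pooled mice) and a naive library were measured by droplet RNA-Seq with antibody tags. The authors deposited unnormalized UMI counts per feature and cell barcode. Per the file headers the 2 h and 3 d counts came from Cell Ranger 6.0.0 and the naive counts from 7.1.0, on mm10 per the submitters' notes. The use of intron reads was not stated in the sources used here. Labels name 5′ and 3′ kits and the methods a 3′ kit, without saying which library had which.

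Cells were filtered as the study's methods state (report), thinned to 500 UMIs with a fixed seed, called from marker panels, and compared in Python (numpy 2.4.6, scipy 1.17.1, pandas 2.3.3). Clusters (scanpy 1.11.5) used 2000 variable genes, 30 components, 15 neighbours and resolution 1, per library, and doublets were called with Scrublet. Shares carry Clopper-Pearson intervals, share ratios Katz intervals and count ratios exact conditional intervals. The genes named were, per lineage with at least 100 cells in both libraries, the 4 highest and 4 lowest by log2 ratio of CPM plus 10, without panel, receptor, mitochondrial and Gm or Rik genes, plus the panels, the listed genes and the antibodies. The steps were tested on simulated data. Members and lists were chosen with earlier results of these data known. Leaving 11 genes out of the calls, the neutrophil minimum of 8 UMIs and the CD45R-positive share were chosen after values were seen.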

Additional observations from a re-analysis of the deposited data

Results flagged for a closer look

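Several values had opposite signs in a pair of lineages. Each difference between lineages was not tested, since a time point is 1 library, and each is a log2 ratio of 3 d over 2 h. The summed inflammatory list was at 0.20 in NK cells and -1.08 in neutrophils, where Cxcl2 was the most abundant member at 2 h. The NK value lay at the median of 0.20 over all genes tested in NK cells, so it is no difference from the bulk of genes. The summed MHC class II list was at 1.08 in NK cells and -0.55 in B cells, where Cd74 was the most abundant member. On the NK cells called by Ncr1 alone this sum turned negative. Summed genes of repair and matrix were at 1.62 in B cells and -1.11 in neutrophils, the latter with Thbs1 as the most abundant member. The macrophage panel in B cells stood at 2.41 CPM at 2 h and 114 at 3 d, and the part of macrophage RNA in the B cell value was not tested.

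Single genes past the fold in opposite directions in a pair of lineages were 29 of 9532 tested in 2 or more (0.304%). Among them S100a8 was at 1.94 in neutrophils and -2.28 in nonclassical monocytes, S100a9 at 1.70 and -2.12, and Ifitm1 at 2.83 and -1.08. S100a8 and S100a9 belong to the panel that called neutrophils, so their neutrophil values are a description. The neutrophil panel in nonclassical monocytes stood at 3365 CPM at 2 h and 711 at 3 d beside them, and the part of neutrophil RNA in these values was not tested.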

How the results depend on the processing

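No paired analysis was possible because each time point is 1 library. Of 68 share ratios (log2, 3 d over 2 h) of the 7 main lineages under the alternatives, 43 stayed within their interval, 24 moved and 1 reversed. The rarer lineages were not counted. At 250 UMIs plasmacytoid dendritic cells (0.60 to -0.20) and plasma cells (-0.18 to 0.89) turned direction, on few cells. The reported ratios were 0.64 for B, -1.22 for T, -0.88 for NK cells, -0.50 for neutrophils, 2.63 for classical and 1.37 for nonclassical monocytes and 7.47 for macrophages. With the 7 leading genes at 500 UMIs they were 0.80 (B), -1.44 (T), -0.38 (neutrophils) and 1.04 (classical monocytes). With these genes unthinned, an alternative added after the data were seen, they were 0.84, -0.76, -0.78 and 0.62, and NK cells reversed to 0.39. Clusters gave 0.55 (B), -1.08 (T), -1.11 (NK), -0.63 (neutrophils), 1.86 (classical) and 0.70 (nonclassical monocytes), and no macrophage ratio, with 0 such cells at 2 h. Without neutrophils and the mixed neutrophil class in the denominator the values were 0.39 (B), -1.47 (T), -1.14 (NK) and 2.37 (classical monocytes). With all panel genes, also added later, they were -0.57 (neutrophils), 3.04 (classical monocytes) and 3.01 (macrophages). Without thinning T cells were at -1.07, without the cell filter neutrophils at -0.60, and at 250 UMIs classical monocytes at 2.37.

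Genes past the fold with CPM plus 1 numbered 2033 (B, against 753), 1484 (T, 569), 1226 (NK, 746), 1515 (neutrophils, 620), 2759 (classical, 1195) and 1732 (nonclassical monocytes, 1148). On counts thinned to 500 UMIs, which test fewer genes, they numbered 304 (NK), 351 (classical) and 206 (nonclassical monocytes), and with Ncr1 alone 118 in NK cells. Those 46 and 22 cells also reversed Fabp5 (-0.88), Bc1 (0.81), MHC class II (-1.28) and repair and matrix (-1.01) in NK cells. Of 336 values of named genes 284 held and 50 moved, and of 288 list sums 152 held and 134 moved. The immediate-early sum was negative in all 6 lineages under all alternatives run. Depth by clusters was at 2.57 in neutrophils and 2.31 in nonclassical monocytes (log2). As shares of all antibody counts, CD45R on B cells was at -0.80, CD44 on neutrophils at -0.34 and Mac2 on classical monocytes at 2.36. The ratio of cycling cells was 1.38 as reported, 3.31 without thinning and 0.23 with at least 1 gene. The cause of these moves was not tested. At 500 UMIs few cells show a given gene, which limits calls of NK cells and monocytes, and the lack of a second library per time point limits every comparison.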

Other observations

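T cells could be divided little further at 500 UMIs. Cd4 without Cd8a or Cd8b1 was seen in 56 of 2244 T cells at 2 h (2.50%, 1.89 to 3.23) and 31 of 819 at 3 d (3.79%, 2.59 to 5.33). Cd8a or Cd8b1 without Cd4 was seen in 7.71% (6.64 to 8.89) and 11.8% (9.71 to 14.3). Foxp3, the factor of regulatory T cells, was seen in 21 and 6 T cells, 0.936% and 0.733%, with overlapping intervals. None of these coreceptor genes was seen in 89.8% and 84.4%, so the composition of T cells by coreceptor is not resolved here.

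Ribosomal protein genes, 85 in the files, stood near their 2 h level in sum. In neutrophils the sum was 31955 CPM at 2 h and 41689 at 3 d (log2 ratio 0.38), with 21 of 82 tested genes past the fold upward and 0 downward, against 4.88% and 2.9% of all tested genes. In B cells the sum was 228458 and 232847 CPM (0.03), with 17 upward and 7 downward of 81, against 4.86% and 3.11%, so single genes of the family moved in both directions while the sum did not.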
